A study of Arabidopsis thaliana with 4 samples.

Results

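Family 1 UDP-glycosyltransferases are plant enzymes that move a sugar, most often glucose, from a UDP-sugar onto small molecules. Their acceptors include hormones, flavonoids, hydroxycinnamates, glucosinolate precursors and xenobiotics, and the sugar generally makes the acceptor more soluble and changes its activity, transport or storage. In Arabidopsis the family is large, and its genes lie in part in tandem groups of close relatives. The genes described here are 60 members of that family outside the UGT71 and UGT72E subgroups, chosen by locus. UGT71 and UGT72E hold genes already known to fall in these data when the list was drawn, so the absence of called genes below is in part a property of the list. Of these 60 loci, 45 had a probe set paired with that locus alone in the array annotation, of 13286 loci in all that had one. Each of the 45 had a single such probe set, so no choice between probe sets was needed, and 25 were bright enough to test.

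The arrays measured total RNA of Arabidopsis thaliana seedlings that all carried 35S::Dof3.2-GR, in which a constitutive viral promoter drives Dof3.2, a zinc finger transcription factor, fused to a glucocorticoid receptor domain that keeps it out of the nucleus until a synthetic glucocorticoid is given. The DEX group (2 arrays) received 10 µM dexamethasone for 3 h, and the mock group (2 arrays) a mock treatment. Seedlings of both groups were grown at 22 °C, on agar for 4 days (with 1% sucrose, and 50 µg/ml kanamycin) and then in shaken liquid medium for another 4 days. The constitutive promoter places the fusion in most tissues rather than where Dof3.2 itself is active, and seedlings without the fusion were not analysed here, which leaves any effect of the steroid alone within every difference. Whole seedlings were sampled, so fewer cells of a type and less RNA per cell cannot be told apart. The labels do not say whether the replicates came from separate cultures, and p-values then reflect spread that may be only technical.

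Values are MAS5 signals on a linear scale, from a one-colour Affymetrix array that summarises several probes per transcript into 1 signal. The median signal of all probe sets was 191 and 193 on the DEX arrays and 193 on each mock array. A probe set was tested where its mean log2 value over the 4 arrays lay at or above the 40th percentile, a signal of about 111, and signals of different probe sets are not levels that can be ranked against each other. Green tissue was present, as the Rubisco activase gene RCA had signals of 21970 and 18696 on the DEX and 21740 and 23728 on the mock arrays, and so was root tissue, as the root β-glucosidase gene PYK10 had 13648 and 14584 on the DEX and 13476 and 14012 on the mock arrays. The marker lists had 5 of 7 root, 1 of 8 green tissue, 2 of 4 epidermal, 1 of 5 vascular and 0 of 4 seed genes with a probe set of their own. Over the 5 root markers the summed signal was 15033 to 15949 in DEX and 15682 to 16504 in mock seedlings, most of it from PYK10. Over the 4 without PYK10 it was 1364 to 1385 in DEX and 2206 to 2492 in mock seedlings. Most of that difference came from the root hair peroxidase gene AT4G26010, known from earlier results when it was listed. Its signal was 574 and 562 on the DEX arrays, against 1325 and 1413 on the mock arrays. It fell 2.41-fold (adjusted p = 0.00134, limma), and the other 4 root markers did not pass. Of those, the root hair expansin gene EXPA18 had both DEX arrays lower (log2 change -0.43; adjusted p = 0.372, limma), and the changes were -0.22 for EXPA7, -0.10 for GH9C1 and 0.04 for PYK10, so that 4 of the 5 were negative. Over all tested probe sets, 48.2% of the changes were positive. The part of root hair cells in the values below was not tested.

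None of the 25 tested glucosyltransferase genes passed the threshold in either direction in limma with Benjamini-Hochberg adjustment over all 13648 tested probe sets (adjusted p 0.318 to 0.994, two-sided, threshold 0.05). Of all tested probe sets, 80 passed, which is 0.586%, so a list of 25 with none called lies near that background. At an unadjusted p under 0.05, 2 of the 25 genes were higher and 1 was lower in DEX seedlings, 12% of them, against 9.25% of all tested probe sets. For 1 gene taken alone, the smallest two-sided p that an exact permutation test allows with 2 arrays against 2 is 1 in 3.

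The changes were small in both directions. The log2 change, DEX minus mock, was positive in 11 genes and negative in 14, against 48.2% positive over all tested probe sets. It ran from -0.32 for AT5G05900 to 0.49 for UGT76E11. Its median was -0.03 over the 25 genes and -0.01 over all tested probe sets, and the median size of a change without its sign was 0.14 for these genes and 0.11 for all tested probe sets. Single arrays can be set against each other on the same scale: the same 25 genes differed by a median of 0.18 on the log2 scale between a DEX and a mock array, over all 4 such pairs, by 0.20 between the 2 DEX arrays and by 0.14 between the 2 mock arrays.

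For the tested genes, each interval taken alone gives the changes that the fit still allows, on replicates that may be only technical. The dim members and those without values have no such interval here. The 95% interval of the change lay within 2-fold in either direction for all 25 genes, as for 98.1% of all tested probe sets, and within 1.5-fold for 17 of the 25, or 68%, against 79.0% of all tested probe sets. The widest interval was that of AT5G12890 (-0.49 to 0.71 on the log2 scale). The smallest change that passed the threshold anywhere on the array was 1.53-fold, and no smaller change passed for any probe set.

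**Figure D1:**
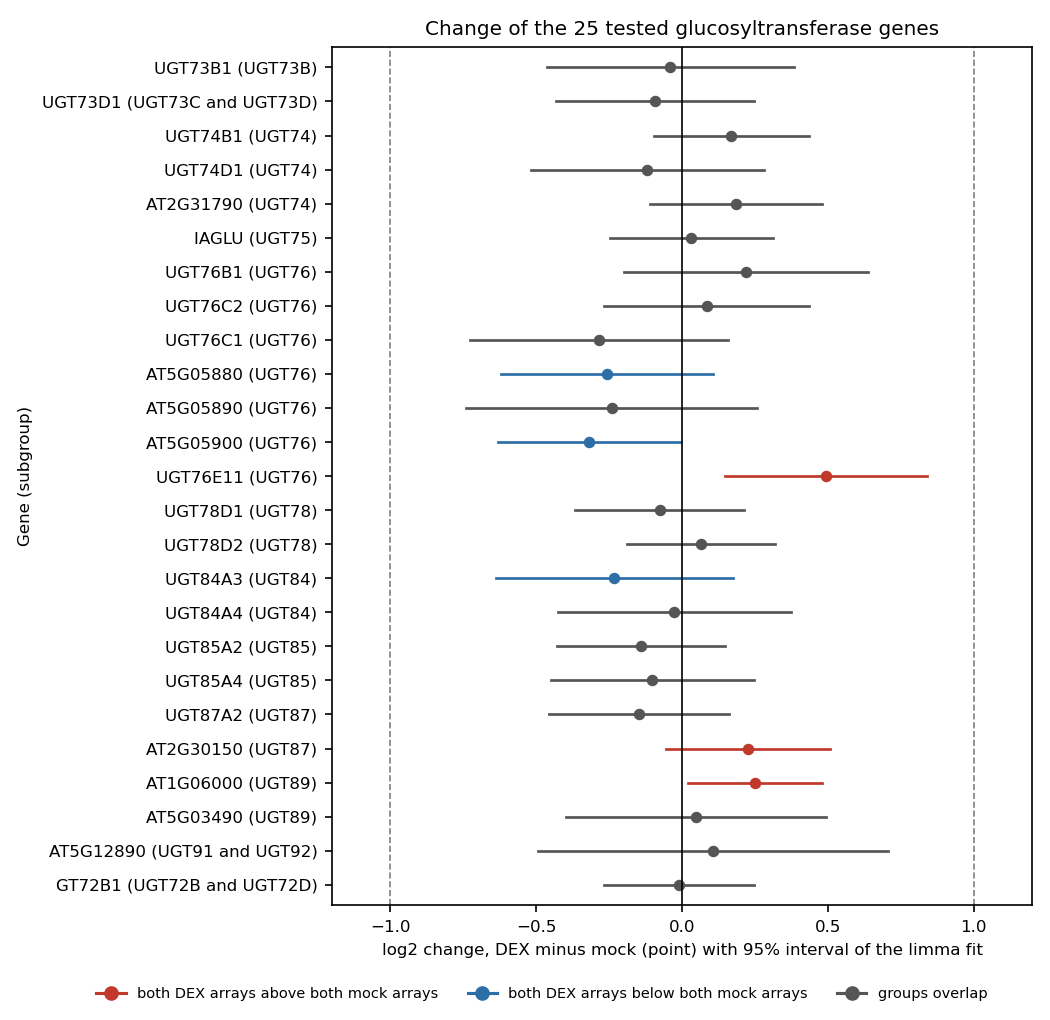
The log2 change (DEX minus mock) of each of the 25 tested genes with its 95% interval from the limma fit, by subgroup; dashed lines mark a 2-fold change either way. Every interval lies inside the dashed lines, 3 genes are drawn in red because both DEX arrays lay above both mock arrays, and 3 in blue because both lay below.

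The groups did not overlap in 6 of the 25 genes, 3 with both DEX arrays above both mock arrays (AT2G30150, AT1G06000 and UGT76E11) and 3 with both below (AT5G05880, AT5G05900 and UGT84A3). That is 24% of the genes, against 39.3% of all tested probe sets, of which 18.2% were higher and 21.1% lower in DEX. In none of the 6 did all 4 pairs of a DEX and a mock array differ by 1.5-fold or more, which 0.769% of all tested probe sets showed.

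**Figure D2:**
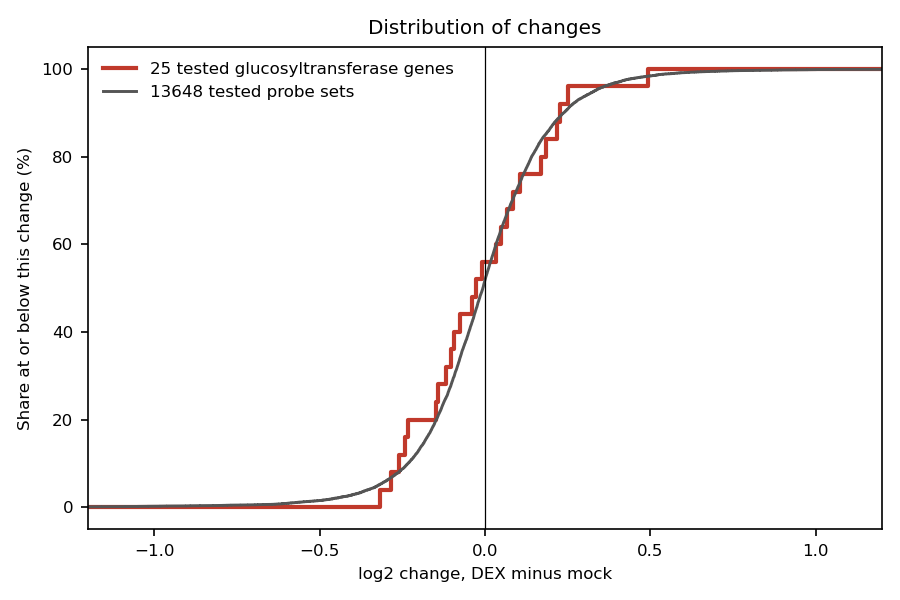
The share of genes at or below each log2 change (DEX minus mock), for the 25 tested glucosyltransferase genes (red) and for all 13648 tested probe sets (grey). Both curves cross 50% close to 0, at medians of -0.03 and -0.01, and the red curve ends at 0.49, the change of UGT76E11.

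The gene with the lowest p was UGT76E11, whose enzyme has been reported to glucosylate flavonoids. Its signal was 246 and 277 on the DEX arrays, against 182 and 189 on the mock arrays. The DEX arrays were the higher ones, with means of 262 ± 21.9 in DEX and 186 ± 5.22 in mock seedlings (SD, n = 2 each). The log2 change was 0.49 ± 0.15 (SE), with an interval of 0.15 to 0.84 and an adjusted p of 0.318 in limma. With each array left out in turn the log2 change of UGT76E11 stayed between 0.41 and 0.58.

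Of the enzymes that act on auxin, UGT74D1 and IAGLU were tested. UGT74D1, which glucosylates indole-3-acetic acid and related auxins, had signals of 1016 and 723 on the DEX arrays, against 1064 and 815 on the mock arrays. Replicate 1 was the higher array in both groups, the groups overlapped, and the log2 change was -0.12 ± 0.18 (SE; adjusted p = 0.898, limma). Its sign turned to 0.13 without DEX replicate 2 and to 0.07 without mock replicate 1. IAGLU, the UGT75 enzyme that makes the glucose ester of indole-3-acetic acid, had signals of 521 and 474 on the DEX arrays, against 479.9 and 492 on the mock arrays, and all 4 arrays lay close together (log2 change 0.03, interval -0.25 to 0.31). UGT84B1, another auxin glucosyltransferase gene, was dim, with 24.7 and 4.67 on the DEX arrays, against 17.7 and 13.8 on the mock arrays.

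The cytokinin N-glucosyltransferases UGT76C1 and UGT76C2, which inactivate cytokinins, lie next to each other and to AT5G05880, AT5G05890 and AT5G05900 on the chromosome, by the gene order of the TAIR10.1 assembly. All 5 of these neighbours were tested. UGT76C1 had signals of 151 and 222 on the DEX arrays, against 229.5 and 217 on the mock arrays. DEX replicate 1 alone was low there, so that the log2 change of -0.29 ± 0.20 (SE; adjusted p = 0.738, limma) became -0.01 without that array and -0.56 without DEX replicate 2. UGT76C2 had 338 and 267 on the DEX arrays, against 286 and 281 on the mock arrays, with overlapping groups and a log2 change of 0.08 ± 0.16 (SE).

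The other 3 neighbours have no symbol in the tables used and are named by locus. AT5G05900 had signals of 378 and 353 on the DEX arrays, against 418 and 497 on the mock arrays. Both DEX arrays were the lower ones, with means of 366 ± 17.9 in DEX and 457 ± 55.5 in mock seedlings (SD, n = 2 each), and the log2 change was -0.32 ± 0.14 (SE; interval -0.63 to -0.0044; adjusted p = 0.531, limma). AT5G05880 had 221 and 195 on the DEX arrays, against 229 and 270.3 on the mock arrays, again with both DEX arrays lower (log2 change -0.26 ± 0.16, SE; adjusted p = 0.698, limma). AT5G05890 had 110.1 and 173 on the DEX arrays, against 163 and 164 on the mock arrays, where DEX replicate 1 alone was low, as in UGT76C1; its log2 change of -0.24 was 0.08 without that array. The change was negative in 4 of the 5 neighbours and positive in UGT76C2, and none of the 5 passed. Over all tested probe sets, 48.2% of the changes were positive. Neighbouring copies of this kind can share probe signal, although all 45 probe sets used carry the plain suffix of probe sets designed to be specific to 1 transcript.

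Several members act on salicylate and other defence compounds. UGT76B1, which glucosylates isoleucic acid, salicylate and N-hydroxypipecolic acid, had signals of 957 and 1228 on the DEX arrays, against 763 and 1137 on the mock arrays. Replicate 2 was the higher array in both groups, which overlapped, and the log2 change was 0.22 ± 0.19 (SE; adjusted p = 0.793, limma). It ranged from -0.07 without mock replicate 1 to 0.51 without mock replicate 2. UGT76D1, which acts on dihydroxybenzoates derived from salicylate, was dim, with 90.5 and 87.1 on the DEX arrays, against 100.4 and 95.2 on the mock arrays.

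UGT74F1, which makes the glucoside of salicylate, was also dim by its mean and therefore outside the test. Its signal was 123 and 100.05 on the DEX arrays, against 54.6 and 49.4 on the mock arrays. The DEX values lay above both mock values, 1 of them over the filter level, with means of 112 ± 16.5 in DEX and 52 ± 3.71 in mock seedlings (SD, n = 2 each). In a fit of all probe sets without the filter, the log2 change of UGT74F1 was 1.10 ± 0.28 (SE) with an adjusted p of 0.335, and with a filter at the 20th percentile the adjusted p was 0.111 (limma). It did not pass in either. UGT74F2, its neighbour and the other salicylate glucosyltransferase gene of the subgroup, was not analysed here.

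UGT74B1, which adds the glucose in the core pathway of glucosinolates, the sulphur defence compounds of the cabbage family, had signals of 2357 and 1974 on the DEX arrays, against 1844 and 1996 on the mock arrays. DEX replicate 1 stood above the other 3 arrays, and the groups overlapped (log2 change 0.17 ± 0.12, SE; adjusted p = 0.743, limma). AT2G31790, of the same subgroup, had 1567 and 1804 on the DEX arrays, against 1326 and 1649.9 on the mock arrays, with a log2 change of 0.18 ± 0.13 (SE; adjusted p = 0.753, limma). Mock replicate 1 was its lowest array, and without it the log2 change was 0.03.

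The UGT78 enzymes attach sugars to flavonols and anthocyanidins. UGT78D1, a flavonol rhamnosyltransferase gene, had signals of 597 and 702 on the DEX arrays, against 652 and 715 on the mock arrays. UGT78D2, a flavonoid glucosyltransferase gene, had 1008 and 1085 on the DEX arrays, against 953 and 1048 on the mock arrays. Both pairs of groups overlapped, and the log2 changes were -0.08 (interval -0.37 to 0.21) for UGT78D1 and 0.07 (interval -0.19 to 0.32) for UGT78D2. UGT78D3, a flavonol arabinosyltransferase gene, had signals from 1.8 to 2.18 in DEX and from 2.95 to 3.21 in mock seedlings, near the bottom of the scale.

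AT1G06000, of the UGT89 subgroup, had the second lowest p. Its signal was 1621 and 1642 on the DEX arrays, against 1344 and 1400.1 on the mock arrays. Both DEX arrays were the higher ones and the arrays within each group lay close together, with means of 1632 ± 14.4 in DEX and 1372 ± 39.8 in mock seedlings (SD, n = 2 each). The log2 change was 0.25 ± 0.10 (SE; interval 0.02 to 0.48; adjusted p = 0.498, limma), and it stayed between 0.22 and 0.28 with each array left out. AT5G03490, of the same subgroup, had 135 and 110.0 on the DEX arrays, against 128 and 109 on the mock arrays, on both sides of the filter level, with a log2 change of 0.05 ± 0.20 (SE).

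The UGT84A enzymes make glucose esters of hydroxycinnamates such as sinapate. UGT84A3 had signals of 116 and 115 on the DEX arrays, against 127 and 145 on the mock arrays. The DEX values were the lower ones, but close to the filter level (log2 change -0.23 ± 0.18, SE; adjusted p = 0.777, limma). UGT84A4 had 125 and 136 on the DEX arrays, against 139 and 127 on the mock arrays, with overlapping groups and a log2 change of -0.03. Their neighbour UGT84A1 was dim, with 24.8 and 26.3 on the DEX arrays, against 5.39 and 15.4 on the mock arrays, and the sinapate glucosyltransferase gene UGT84A2 was not analysed here.

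GT72B1, which glucosylates chlorinated phenols and anilines and also monolignols, had signals of 1097 and 986 on the DEX arrays, against 1006 and 1089 on the mock arrays. The 4 values lay close together, with a log2 change of -0.01 ± 0.11 (SE; interval -0.27 to 0.25). Its sign turned under median centring, to 0.0015, so no direction can be given. The UGT73 subgroups, known for glucosylating flavonoids, steroid hormones and toxins, had 2 tested members. UGT73B1 had 124 and 143 on the DEX arrays, against 151 and 124 on the mock arrays, and UGT73D1 had 221 and 255 on the DEX arrays, against 254 and 252 on the mock arrays. Both pairs of groups overlapped (log2 changes -0.04 and -0.09). UGT73C6 and the deoxynivalenol and brassinosteroid glucosyltransferase gene DOGT1 were not analysed here.

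In the UGT85 subgroup, UGT85A2 had signals of 530.3 and 629 on the DEX arrays, against 625 and 648 on the mock arrays, and UGT85A4 had 211 and 213 on the DEX arrays, against 213 and 244 on the mock arrays. The log2 changes were -0.14 ± 0.13 and -0.10 ± 0.16 (SE), and in both genes the groups overlapped. The neighbours UGT87A2, which has a reported role in flowering time, and AT2G30150 differed in sign. UGT87A2 had 607 and 604 on the DEX arrays, against 596 and 753 on the mock arrays, with mock replicate 2 alone high (log2 change -0.15 ± 0.14, SE; 0.02 without that array). AT2G30150 had 633 and 607 on the DEX arrays, against 567 and 495 on the mock arrays, with both DEX arrays higher, means of 620.0 ± 18.8 in DEX and 531 ± 50.9 in mock seedlings (SD, n = 2 each) and a log2 change of 0.23 ± 0.13 (SE; adjusted p = 0.641, limma). The difference between these neighbours was not tested. AT5G12890, placed with UGT91 and UGT92, had 250.4 and 329 on the DEX arrays, against 193 and 368 on the mock arrays, where the mock arrays lay outside the DEX arrays on both sides (log2 change 0.11 ± 0.27, SE).

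**Figure D3:**
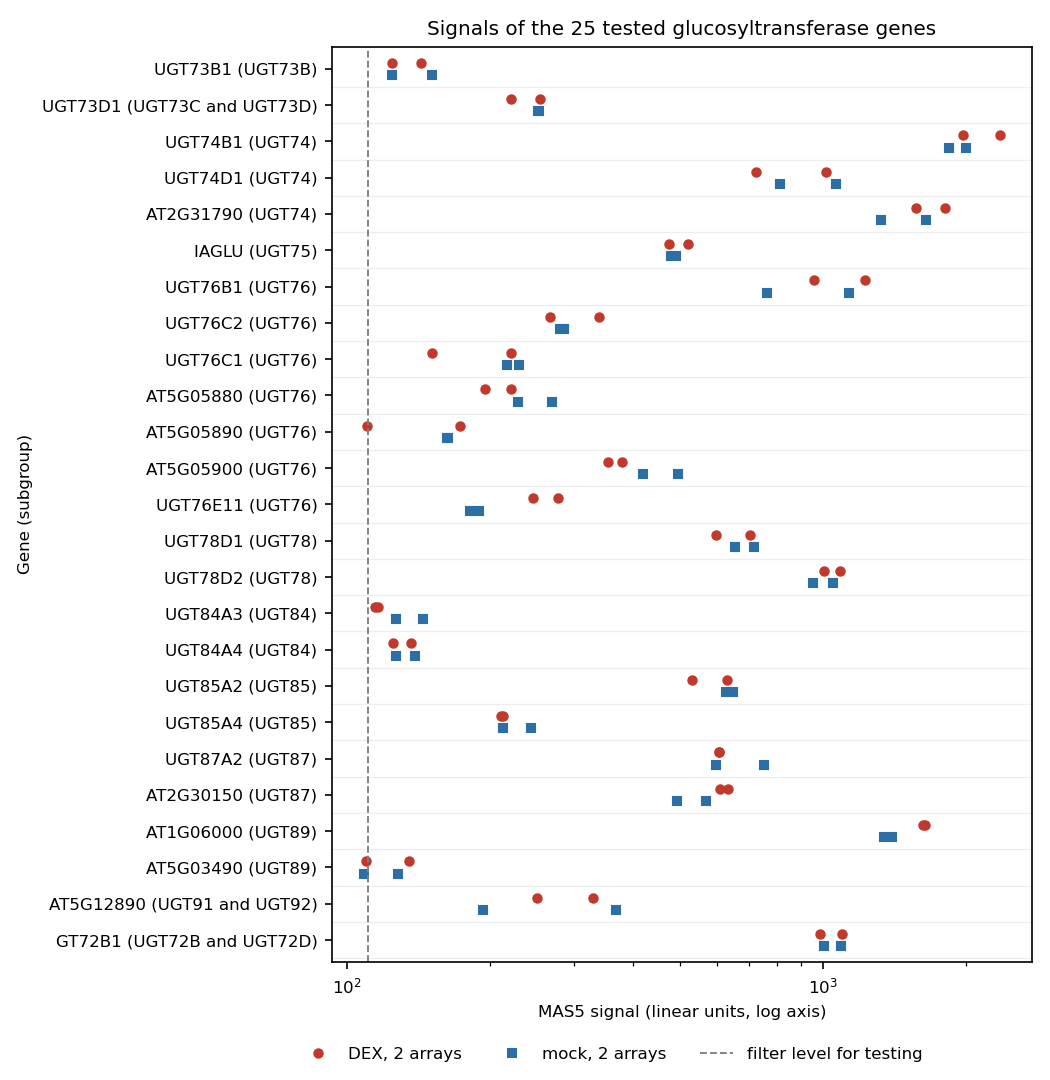
MAS5 signals (log axis) of the 25 tested genes on the 2 DEX arrays (red circles) and the 2 mock arrays (blue squares); the dashed line is the filter level of about 111. The groups are apart in 6 genes, such as UGT76E11 and AT1G06000, and overlap in 19.

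By subgroup, 0 members passed in any of the 12, and only the UGT74 and UGT76 subgroups had at least 3 tested members. In UGT76, 7 of 11 members were tested, with a median log2 change of -0.24 and a range from -0.32 to 0.49, so that the most positive and the most negative change of the 25 genes both came from that subgroup. In UGT74, 3 of 7 members were tested, with a median of 0.17. The other 10 subgroups had 1 or 2 tested members each. Of the 60 loci, 36 lie in 12 runs of adjacent members by the gene order of TAIR10.1, and the run of 5 described above was the only one with more than 2 tested members.

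The 20 dim members were outside the test. Their geometric mean signals ran from 2.35 to 93.1, under the level of about 111, and 6 of them were under 10. The groups did not overlap in 10 of the 20, 5 higher and 5 lower in DEX, against 36.6% of all dim probe sets. In 3 of the 20, UGT74F1, UGT73B4 and UGT84A1, both DEX arrays were at least 1.5-fold above both mock arrays, against 4.06% of all dim probe sets. For UGT84A1 the mock signals were 5.39 and 15.4, near the bottom of the scale. In another 2 of the 20, UGT76E12 and UGT73C2, both DEX arrays were at least 1.5-fold below both mock arrays, against 6.09% of all dim probe sets. Both shares are larger than those of all dim probe sets, but they rest on few genes and the difference was not tested. UGT76E12 had 0.66 and 1.62 on the DEX arrays, against 17.2 and 4.78 on the mock arrays, and UGT73C2 had 1.93 and 9.43 on the DEX arrays, against 16.5 and 14.2 on the mock arrays, all near the bottom of the scale. UGT73B4, whose subgroup is known for roles in stress responses, had 71.4 and 64.7 on the DEX arrays, against 37.9 and 35.5 on the mock arrays. Both DEX arrays were higher, with a log2 change of 0.89 ± 0.33 (SE) and an adjusted p of 0.545 in limma without the filter. Its neighbour UGT73B5 had 75.5 and 101 on the DEX arrays, against 36.7 and 96.3 on the mock arrays, where mock replicate 1 alone was low. AT2G22590 had 52.9 and 73.5 on the DEX arrays, against 48.5 and 9.79 on the mock arrays, with mock replicate 2 far under the others. In UGT85A7, UGT85A5 and UGT85A3, of the same tandem run as UGT85A2, the groups overlapped at signals of 63.6 to 106, 50.8 to 85.4 and 34.8 to 49 over the 4 arrays. UGT73C7 had 25.2 and 27.8 on the DEX arrays, against 24.9 and 22.6 on the mock arrays, AT4G14090 had 84 and 57.8 on the DEX arrays, against 104 and 71.5 on the mock arrays, and both lay under the filter level throughout. UGT76E2 and AT5G49690 overlapped between groups at signals of 13.7 to 36.5 and 6.68 to 28.2 over the 4 arrays. The 6 members under 10 were UGT73C1, UGT73C2, UGT76E1, UGT76E12, UGT78D3 and UGT84B2, and the highest single value among them was 17.2, for UGT76E12 on mock replicate 1. No detection calls were used here, so whether these transcripts were present at all cannot be said.

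**Figure D4:**
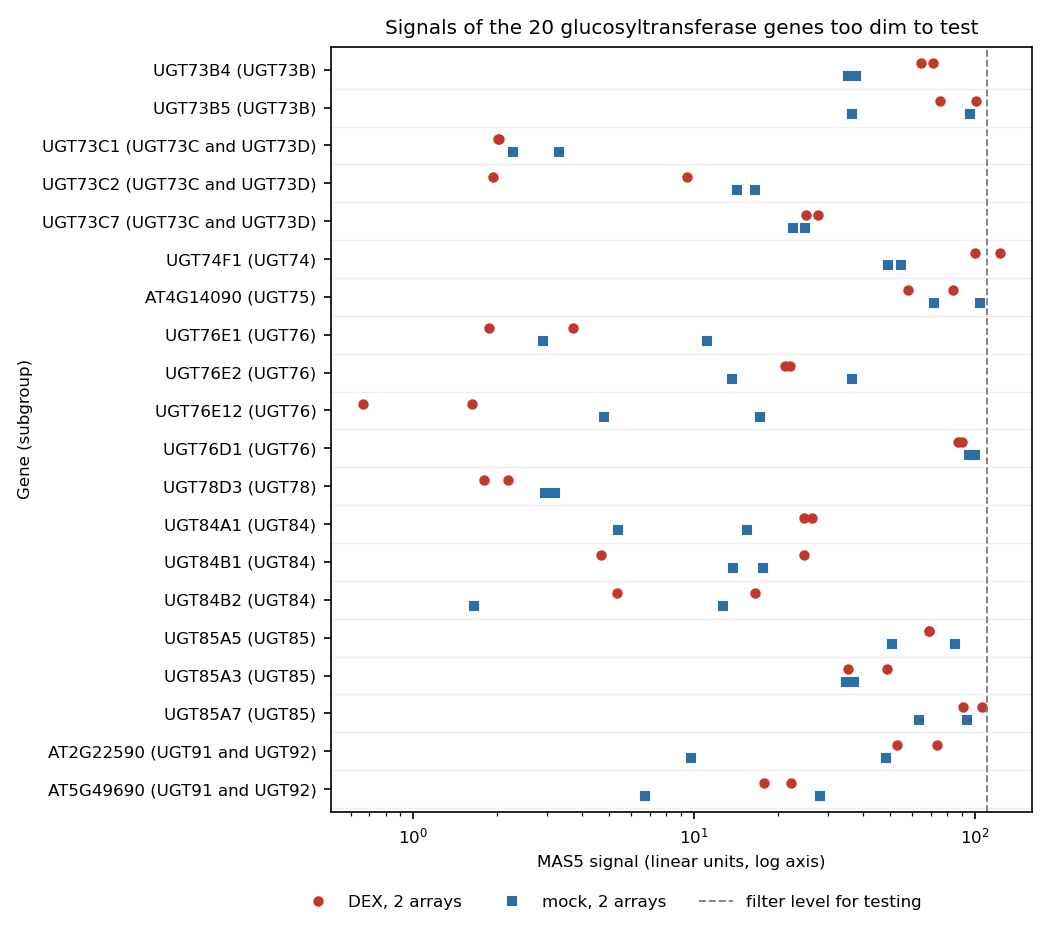
MAS5 signals (log axis) of the 20 members left out as dim, on the 2 DEX arrays (red circles) and the 2 mock arrays (blue squares); the dashed line is the filter level of about 111. UGT74F1 and UGT73B4 show both DEX arrays to the right of both mock arrays, and for UGT74F1 one DEX array lies above the line.

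The remaining 15 members have no values here. For 6 of them (UGT73B2, UGT73B3, AT2G36770, AT2G36780, UGT89B1 and AT2G18570) the annotation lists only probe sets shared with another gene, and for 9 (UGT73C6, DOGT1, AT1G05675, UGT74E2, UGT74F2, UGT75B1, UGT75B2, UGT84A2 and UGT85A1) it lists none.

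Of the subfamilies outside this list, UGT71 had 6 and UGT72E had 2 tested members in the same fit. In each, 1 member passed and was lower in DEX, against 0.586% of all tested probe sets that passed in either direction. Both subfamilies hold genes already known to fall in these data when the list was drawn, so these counts are no independent result. In UGT71, 4 of the 6 changes were negative and 2 positive, among them UGT71C3 (log2 change 0.45, adjusted p = 0.464, limma). UGT71C1 had signals of 282 and 249.6 on the DEX arrays, against 527 and 506 on the mock arrays (adjusted p = 0.0188, limma), and the monolignol glucosyltransferase gene UGT72E2 had 496 and 399.6 on the DEX arrays, against 896 and 927 on the mock arrays (adjusted p = 0.0127, limma). The intervals of these changes, -1.27 to -0.66 for UGT71C1 and -1.34 to -0.73 for UGT72E2 on the log2 scale, exclude 0. Neither call held in every alternative: that of UGT71C1 was lost without the filter (adjusted p = 0.057, limma) and without DEX replicate 1 or 2 (0.053 and 0.142), and that of UGT72E2 without DEX replicate 2 (0.109), with both changes negative throughout. Whether the subfamilies differ was not tested.

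Beside genes that make acceptors or sugar donors of these enzymes, the lists held genes of auxin conjugation, cytokinin turnover and response, and detoxification. Together they were covered thinly. Of 109 genes in 8 lists, 13 had a probe set of their own, 11 were tested and 0 passed in limma, against 0.586% of all tested probe sets. At an unadjusted p under 0.05 there were 3 of the 11, or 27.3%, against 9.25% of all tested probe sets. Of these 3, 2 were higher and 1 was lower in DEX. The lists were chosen with earlier results of these data known, so this share is not independent of those results. For the lists of UDP-sugar supply, flavonoid synthesis and salicylate synthesis, 0 members could be tested. The cytokinin response regulator gene RR16 had signals of 251 and 331 on the DEX arrays, against 157 and 172 on the mock arrays. The DEX arrays were the higher ones (log2 change 0.81 ± 0.18, SE; adjusted p = 0.107, limma), and its adjusted p ran from 0.0244 to 0.857 over the alternatives, with 0.0412 and 0.0245 without mock replicate 1 and 2. ARR15, the only other gene of that list with a probe set of its own, was dim and lower in DEX, with 63.6 and 54.99 on the DEX arrays, against 80.2 and 76.7 on the mock arrays (adjusted p = 0.776 in limma without the filter). BCAT4, which starts the chain elongation of methionine for glucosinolates, had 7579 and 7417 on the DEX arrays, against 5764 and 4985 on the mock arrays (log2 change 0.48 ± 0.11, SE; adjusted p = 0.12, limma). Over the alternatives the adjusted p of BCAT4 ran from 0.0124 to 0.532, with the lowest value without mock replicate 1.

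In the auxin conjugation list, 5 of 10 genes were tested, 4 with a negative and 1 with a positive change, and the median log2 change was -0.22. Over all tested probe sets, 48.2% of the changes were positive and the median was -0.01. GH3.3, which joins auxin to amino acids, had 238 and 259.6 on the DEX arrays, against 299 and 336 on the mock arrays (log2 change -0.35 ± 0.15, SE; adjusted p = 0.504, limma). GH3.17 and WES1, of the same family, had log2 changes of -0.22 and -0.22. The phenylpropanoid genes HCT and ALDH2C4 had log2 changes of 0.05 (interval -0.20 to 0.30) and -0.03 (interval -0.25 to 0.19), and the glutathione transferase genes GSTU20 and GSTU25 of the detoxification list had 0.11 ± 0.11 and -0.32 ± 0.27 (SE). None of these passed.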

How the data were processed

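Total RNA was hybridised to 4 one-colour arrays. The deposited values are intensities that the authors computed with MAS5 (per the submitters' processing notes), whose version is not given in the sources used here. The mean trimmed by 2% at each end was 499.8 on every array, which hides any change in total RNA. Of 22810 probe sets, 64 controls were left out, the rest were put on the log2 scale, and 13648 at or above the 40th percentile of mean log2 value were tested. The number of arrays limits the precision.

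Genes came from the platform annotation (13513 probe sets with 1 gene, 503 with several, 8730 not listed), with symbols from a RefSeq table of TAIR10.1, which held all 60 loci; the brightest probe set was to stand for a locus. Coordinates are left out because the array names no build. Subgroups were assigned from general knowledge of the family.

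The comparison of DEX with mock used limma 3.58.1 under R 4.3.3, with trended variances and no covariate, and p-values adjusted by Benjamini-Hochberg, and the script was tested on simulated data. Every member could be named; full statistics went to the 10 lowest p, the 3 highest signals and the extremes of subgroups with at least 3 tested members, and of each pathway list up to 3 genes of lowest p. Members and lists were chosen with earlier results of these data known. Alternatives were another normalization, filter, pseudocount or variance model, a replicate block, and each array left out.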

Additional observations from a re-analysis of the deposited data

Results flagged for a closer look

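The probe sets of 3 of the 20 members left out of the test as dim had both DEX arrays at least 1.5-fold above both mock arrays, against 4.06% of all dim probe sets. Another 2 of the 20, UGT76E12 and UGT73C2, had both DEX arrays at least 1.5-fold below both mock arrays, against 6.09% of all dim probe sets. These shares rest on few genes, and their difference from all dim probe sets was not tested. The first 3 are listed because their signal lies outside the tested data and above the mock level. UGT74F1 had a mean signal of 112 in DEX and 52 in mock seedlings. UGT73B4 had a mean of 68.1 in DEX and 36.7 in mock seedlings. UGT84A1 had a mean of 25.5 in DEX and 10.4 in mock seedlings, where the 2 arrays gave 5.39 and 15.4, near the bottom of the scale. None passed in limma without the filter (adjusted p = 0.335, 0.545 and 0.648).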

How the results depend on the processing

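The count of glucosyltransferase genes past the threshold was 0 under every alternative run, in limma, with the lowest adjusted p of any member at 0.0754 (UGT76B1, without mock replicate 2). Their median log2 change stayed between -0.0888 and 0.0397, and each value lay within the spread between replicates (SD 0.0715) of the reported -0.0264. The filter changed which genes this median covered. It was taken over 25 genes in the main fit, 45 without the filter, 13 at the 60th and 36 at the 20th percentile. The count over all probe sets was 80, against 25 without the filter, 43 with a filter at the 60th percentile, 185 with the replicate block and 27, 25, 496 and 260 without DEX replicate 1, DEX replicate 2, mock replicate 1 and mock replicate 2. The count of members with separated groups was 6, and 0 at both 1.5-fold and 2-fold in all pairs. With all 4 arrays, filters, variance models and the replicate block leave the log2 change of a gene as it is. Only normalization, centring and the pseudocount could turn a direction there. Under these alternatives GT72B1 turned, to 0.0015 under median centring. That was 1 of 318 values over 37 named genes, many of which could not turn, and in all others the direction was kept. With 1 array left out it turned in 25 of 148 values, where the log2 change ran from -0.18 to 0.10 for UGT73B1, -0.20 to 0.011 for UGT73D1, -0.36 to 0.13 for UGT74D1, -0.035 to 0.099 for IAGLU, -0.069 to 0.51 for UGT76B1, -0.085 to 0.25 for UGT76C2, -0.57 to 0.083 for AT5G05890, -0.19 to 0.040 for UGT78D1, -0.0026 to 0.13 for UGT78D2, -0.089 to 0.037 for UGT84A4, -0.32 to 0.021 for UGT87A2, -0.10 to 0.20 for AT5G03490, -0.36 to 0.57 for AT5G12890, -0.086 to 0.068 for GT72B1, -0.037 to 0.14 for HCT, -0.0061 to 0.22 for GSTU20 and -0.65 to 0.015 for GSTU25. The cause was not tested. BCAT4 and RR16 passed with the replicate block (adjusted p = 0.0306 and 0.0244, limma), at unchanged log2 changes of 0.484 and 0.808, and with a mock array left out, as given above. The losses of the UGT71C1 and UGT72E2 calls are also given above. The deviations of same-numbered arrays correlated at 0.109 across probe sets, from 2 pairs only. The labels number the arrays alike in both groups and name no batch, so whether same-numbered arrays were paired is not known. The main fit treated them as unpaired. Counting every probe set of a locus changed nothing, as each had 1. Dim signal limits 20 of the 45 measured members.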

Other observations

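In 14 of the 25 tested glucosyltransferase genes replicate 2 differed from replicate 1 in the same direction in both groups, and in the other 11 in opposite directions. The share over all tested probe sets is not given here, so this count is not read as particular to these genes. By the smaller of the differences in the 2 groups, the 3 genes that follow led the 14. For UGT76B1, replicate 2 was higher than replicate 1 by 28.3% in DEX and by 49% in mock seedlings, and for AT5G12890 by 31.6% and 90.6%. For UGT74D1, replicate 2 was lower by 28.8% in DEX and by 23.5% in mock seedlings. These genes were picked after their values were seen, and the labels name no batch.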
